A study of Caenorhabditis elegans with 54 samples.

Results

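The cytosolic ribosomal protein genes of Caenorhabditis elegans are described here across dauer arrest, dauer exit and ultraviolet (UV) irradiation. The genes were taken by symbol: every rpl or rps symbol followed by a number, without rpl-11.1, rpl-11.2, rpl-24.1, rpl-24.2, rpl-25.1 and rpl-25.2. This gave 72 of the 19909 genes in the count table, 41 coding for proteins of the large subunit and 31 for proteins of the small subunit. The 6 genes left out match the same symbol pattern, which 78 genes match in all. They were set aside as paralogs with divergent courses, with earlier results of these data known, so the closeness of the 72 was partly fixed by the choice. Not all of the 6 diverged over the 18 conditions, as rpl-24.1 and rpl-25.2 correlated with the set at 0.995 and 0.939. The main counts are also given with the 6 included.

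RNA was sequenced from whole animals of 1 genotype, daf-2(e1370), a temperature-sensitive allele of the insulin/IGF receptor gene, in 18 conditions with 3 biological replicates each. Dauer larvae were collected on day 1, 4, 15 and 30 of arrest (D1, D4, D15, D30), each before exit (0 h) and 6 h and 24 h after transfer to fresh food at the permissive temperature. Further dauers were exposed to UVB on day 1 and collected after 6 h and 24 h of exit on D1, and at 0 h, 6 h and 24 h on D4. L3 larvae that had not entered dauer were the non-dauer group. Dauers were induced and held at a higher temperature, at which this strain enters dauer. The paper kept non-dauer daf-2 animals at the permissive temperature, so temperature and stage cannot be told apart between dauers and L3 larvae. All groups carry the daf-2 allele and no wild type was sequenced, and each library is the RNA of a pooled population of whole worms.

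The cytosolic ribosome is built of a large subunit, which joins amino acids into a chain, and a small subunit, which reads the messenger RNA. Nearly every ribosomal protein is present in a single copy per ribosome, and the genes are among the most strongly transcribed of growing cells. Dauer is a non-feeding, stress-resistant larval stage that takes the place of L3 under poor conditions, and it is left when food returns.

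The 72 genes lie on chromosome I (20 genes), II (10), III (18), IV (17) and V (7) of the WBcel235 genome. They are short: the longest annotated transcript ran to 236 to 1334 bases, with a median of 513.5, and the longest coding sequence to 66 to 1203 bases, with a median of 435. In the annotation 13 of them overlap another gene, among them rpl-22 and rpl-28 below, so reads could have been split between the overlapping genes. After the filter on low counts 70 of the 72 were tested. The other 2 were rpl-37, which never exceeded 7 counts in a library, and rpl-42, which never exceeded 5.

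Levels between genes were compared as CPM, the count relative to the library's scaled total, per kilobase of the longest transcript. Over the 54 libraries the 70 tested genes had a median of 2600 CPM per kilobase, and 67 of the 70 lay between 0.5 and 2 times that median. The highest was rpl-41.2, at 5060 CPM per kilobase, and the lowest rpl-41.1, at 63.7. Both code for the smallest protein of the ribosome and lie side by side on chromosome I, from 4789190 to 4789592 (rpl-41.1) and from 4790292 to 4790642 (rpl-41.2). With 66 coding bases each they may share reads, though their sequences were not compared here. The split of reads between them is therefore uncertain, and every value for rpl-41.1 below carries that doubt. Among the other genes rpl-7 had 4084, rps-23 had 3770, rpl-10 had 3748 and rpl-30 had 1261 CPM per kilobase.

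Library totals ran from 670302 to 12952656 estimated counts. The 18 D4 libraries were the shallowest, with 670302 to 5978390, and the 3 D4 0 h UV libraries the shallowest of these, with 670302 to 856794, yet 69 of the 72 genes had at least 10 counts in all 54 libraries. The D4 0 h libraries without UV stood apart: the summed level of 3 yolk protein genes of adult hermaphrodites (vit-2, vit-5, vit-6) was 470 to 1860 CPM there, against 0 to 0.115 CPM in D1 dauers and 8.87 to 11.6 CPM in D15 dauers. In the same D4 libraries 31 major sperm protein genes summed to 33 to 75.6 CPM, against 1.84 to 8.07 CPM in D1 dauers. In the other conditions the yolk genes reached at most 229 CPM, in a library at 24 h on D4. At 24 h on D1 all 3 libraries held sperm transcripts, at 15.8 to 52.9 CPM, which overlaps the D4 0 h range. With UV at 24 h on D1 the yolk genes summed to 12 to 96.9 CPM and the sperm genes to 12.7 to 29.7 CPM. The dauer marker hsp-12.6 had 330 to 361 CPM in D1 dauers and 0 to 0.12 CPM in L3 larvae, which fits the labels of both. During exit it fell at both steps on D4 and D30, but not on D1 and D15. On D1 it had 513 to 530 CPM at 6 h and 158 to 198 CPM at 24 h. On D15 it had 895 to 934 CPM at 0 h, 305 to 330 CPM at 6 h and 537 to 799 CPM at 24 h.

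The 72 genes together took the smallest share of counts in D1 dauers. At 0 h the share was 4.78% ± 0.0182 (SD, n = 3) on D1, 12.01% ± 0.241 on D4, 12.2% ± 0.480 on D15 and 9.23% ± 0.0289 on D30. L3 larvae had 12.3% ± 0.485. On D1 the share was 6.50% ± 0.187 at 6 h and 11.3% ± 0.219 at 24 h, so that the 3 times of D1 did not overlap. The other days moved less during exit, with 10.8% ± 0.245 and 11.198% ± 0.1996 at 6 h and 24 h on D4, 12.03% ± 0.143 and 13.3% ± 0.120 on D15, and 9.27% ± 0.144 and 10.2% ± 0.219 on D30. With the 6 paralogs included the share was 5.04% in D1 dauers at 0 h and 12.87% in L3 larvae. Of the 200 genes with the highest CPM, 35 were ribosomal protein genes of the set in D1 dauers, against 62 in L3 larvae.

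**Figure D1:**
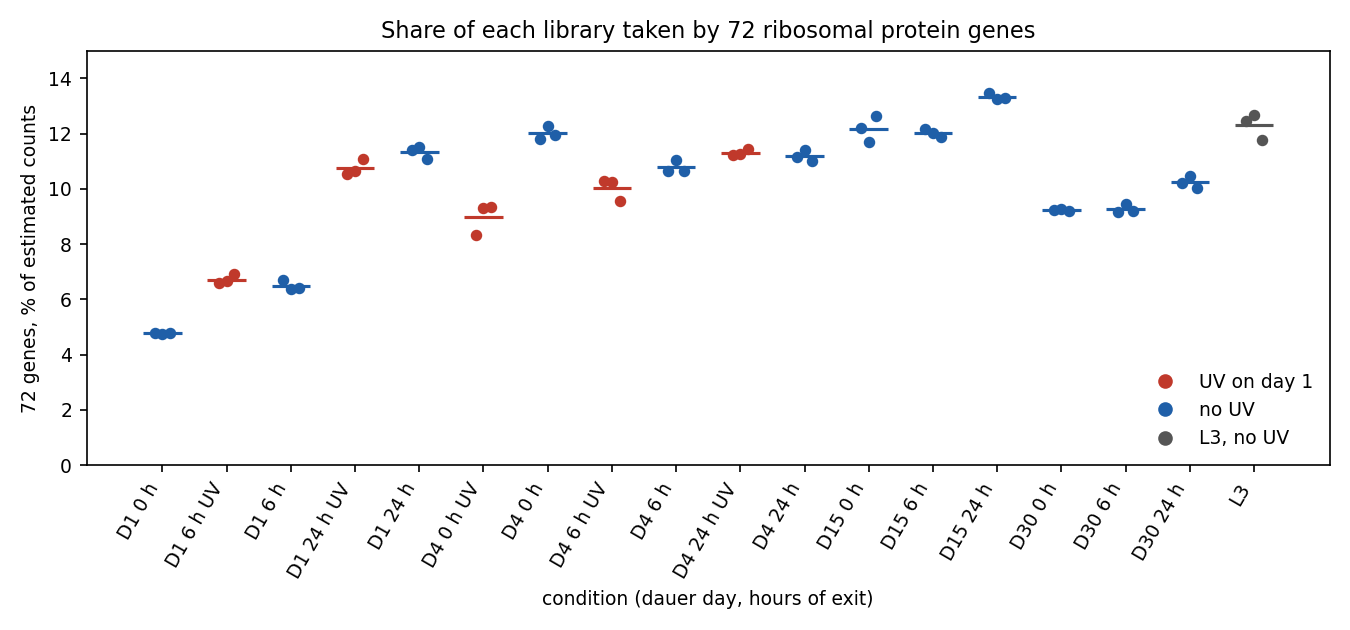
Share of each library's estimated counts (%, y axis) taken by the 72 ribosomal protein genes in 18 conditions (x axis). Points are libraries and lines are means of 3; D1 0 h lies lowest, at 4.76% to 4.80%, and D15 24 h highest, at 13.2% to 13.5%.

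Whether ribosomal protein transcripts were lower on day 1 of dauer than in larvae that never arrested was addressed by D1 dauers against L3 larvae. Dauers of later days were not tested against L3 at 0 h. Their shares of counts on D4 and D15, 12.01% and 12.2%, were near the 12.3% of L3 larvae. All 70 tested genes were lower in D1 dauers, by the quasi-likelihood test of edgeR, adjusted after Benjamini and Hochberg over 13419 genes, of which 36.9% were lower and 38.7% higher. The median log2 change was -1.68, with a range of -2.11 to -1.38, against a median of 0.04 over all genes tested. With the 6 paralogs included, 75 of 76 were lower and 1 higher. In whole animals, fewer cells of a type and less RNA per cell cannot be told apart. The D1 cuticle genes col-2, col-40 and cut-1 summed to 24800 to 25900 CPM in D1 dauers, against 0 to 0.36 CPM in L3 larvae, and the body-wall muscle genes myo-3 and unc-54 to 8860 to 9840 CPM, against 14000 to 15200 CPM, and their part in the result was not tested. The large and small subunits had the same median change to within 0.02, -1.69 for rpl genes and -1.67 for rps genes.

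The gene nearest the median was rpl-1 (chromosome I, 2875398 to 2876308), whose protein forms the stalk beside the exit site of transfer RNA. It had 699.5, 667 and 712 CPM in D1 dauers, against 2283, 2378 and 2099 CPM in L3 larvae, a log2 change of -1.68 ± 0.06 (SE; adjusted p = 1.66e-07, edgeR). The deepest fall was that of rps-24 (chromosome IV, 385887 to 386606), a small subunit gene with 519, 513 and 545 CPM in D1 dauers, against 2300, 2445 and 2193 CPM in L3 larvae (log2 change -2.11 ± 0.06). The smallest was that of rps-29 (chromosome III, 794300 to 795031), a zinc-binding protein of the small subunit, with 343, 326 and 327 CPM in D1 dauers, against 911, 928 and 798 CPM in L3 larvae (log2 change -1.38 ± 0.07). In each of the 3 genes the groups were far from overlapping. The genes did not all fall by the same amount, since the SD of the 70 changes, 0.165, was 2.88 times the median standard error of a single gene, 0.0571.

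During arrest the genes rose early and fell late. In D4 against D1 dauers 69 genes rose and 1 fell, with a median log2 change of 1.20, where 36% of all 13884 genes tested rose and 34.1% fell. In D15 against D4 dauers 61 rose and none of the 70 fell, with a median of 0.25 (31.6% of all genes rose). In D30 against D15 dauers 68 fell and none rose, with a median of -0.35 (28.8% of all genes fell and 28.9% rose). D30 dauers were still above D1 dauers in 69 genes, with a median of 1.10 (38.8% of all genes were higher), the exception being rpl-41.1 (0.18 ± 0.12, adjusted p = 0.167, edgeR). With the 6 paralogs included, 75 of 76 rose and 1 fell on D4 over D1, 65 rose and 2 fell on D15 over D4, and 72 fell and 1 rose on D30 over D15. The comparisons of neighbouring days share libraries, so their values are not independent of each other.

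The gene nearest the median of D1 against L3, rpl-1, had 699.5, 667 and 712 CPM on D1 and 1618, 1660 and 1670 CPM on D4. It had 2169, 2032 and 2289 CPM on D15, and 1568, 1525 and 1517 CPM on D30. On the log2 scale against L3, rpl-1 stood at -0.45 on D4 and -0.06 on D15, above the medians of the 70 genes, -0.62 and -0.29. Its D1 libraries lay below all others and its D15 libraries above all others. The largest rise of D4 over D1 was that of rps-16 (chromosome V, 15000018 to 15000541), a small subunit gene with 1572, 1883 and 1747 CPM on D4, against 696, 662 and 679 CPM on D1 (log2 change 1.44 ± 0.05, adjusted p = 1.9e-16, edgeR). The 1 gene that fell was rpl-41.1, with 11.99, 11.3 and 11.6 CPM on D4, against 14.3, 19.4 and 18.8 CPM on D1 (log2 change -0.49 ± 0.14). Beside these rises, the D1 cuticle genes summed to 10.5 to 35 CPM on D4, against 24800 to 25900 CPM on D1, and the 2 body-wall muscle genes to 921 to 1080 CPM, against 8860 to 9840 CPM; their part in the result, and that of the yolk and sperm transcripts on D4, was not tested.

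Between D4 and D15 the largest rise was that of rps-8 (chromosome IV, 7312958 to 7313860), a small subunit gene. It had 3633, 3467 and 3808 CPM on D15, against 2459, 2386 and 2304 CPM on D4 (log2 change 0.54 ± 0.04). At the other end rps-13 (chromosome III, 6374097 to 6374997), also of the small subunit, had 1393, 1314 and 1441 CPM on D15, against 1239, 1394 and 1309 CPM on D4, with overlapping groups and a log2 change of 0.00 ± 0.04. The 9 genes without a call had changes of 0.00 to 0.11. This comparison depended on the scaling: with library totals alone in place of trimmed-mean (TMM) factors, 24 genes were higher and 16 lower and the members' median was 0.02, while the median of all genes shifted by -0.23. The members' median stood 0.26 above that of all genes under library totals. With the yolk and sperm transcripts of D4 again at other levels than on D15, their part was not tested.

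In D30 against D15 dauers, rps-13 had the deepest fall, with 903, 863 and 863 CPM on D30, against 1393, 1314 and 1441 CPM on D15 (log2 change -0.60 ± 0.04, adjusted p = 6.59e-11, edgeR). Next came rpl-3 (chromosome III, 3867854 to 3869587), a core protein near the catalytic centre of the large subunit, with 2783, 2747 and 2738 CPM on D30, against 4308, 4077 and 4439 CPM on D15. The exceptions were rps-29 (log2 change -0.10 ± 0.04, adjusted p = 0.052) and rpl-41.1 (0.15 ± 0.12, adjusted p = 0.288). For rps-29 the 3 D30 libraries had 803, 789 and 768 CPM, against 886, 830.4 and 914 CPM on D15, and the groups did not overlap. The gene that kept most of its rise by D30 was rpl-12 (chromosome IV, 13239587 to 13240651), which binds the base of the stalk where elongation factors dock. It had 2287, 2235 and 2261 CPM on D30, against 716, 664 and 719.7 CPM on D1, a log2 change of 1.77 ± 0.04.

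Coding length was set against the change in each of 27 comparisons, and the strongest relation was that of the late fall. Over 69 genes (without rpl-41.1), Spearman's correlation between coding length and the log2 change of D30 against D15 was -0.54, with a median change of -0.31 in the shortest of 3 equal groups by coding length and -0.39 in the longest. In the same comparison the correlation of the change with the mean count was -0.41, so length and level were not separated. Over the 13810 other genes tested the correlation with coding length was -0.00. For D4 against D1 it was 0.35 in the members and 0.04 in the others, and values of similar size and either sign came from the first step of D1 exit (0.38) and from UV at 6 h (-0.40) and 24 h (0.37) on D4. These are descriptions over genes of the same libraries and carry no test.

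**Figure D2:**
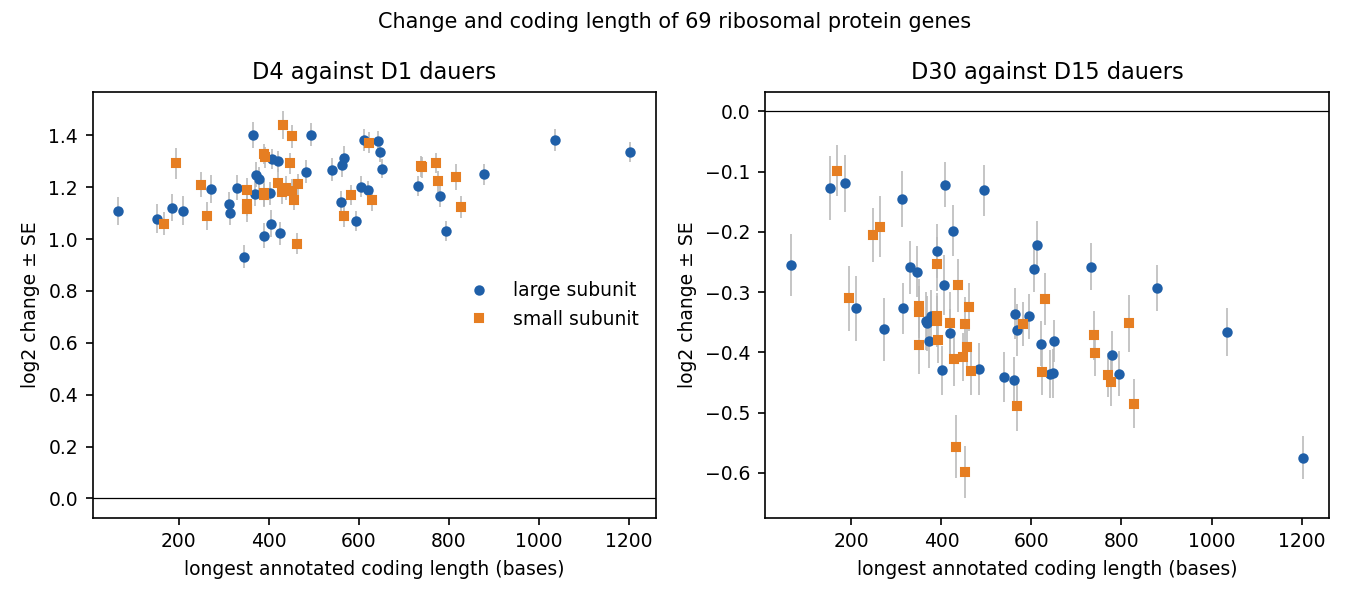
Log2 change ± SE (y axis) against the longest annotated coding length in bases (x axis) for 69 ribosomal protein genes, in D4 against D1 dauers (left) and D30 against D15 dauers (right). Circles are large subunit genes and squares small subunit genes; on the right, short genes lie nearer to 0, with a Spearman correlation of -0.54.

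A straight line over the 4 dauer days, the form of the study's own model, gave few calls. Over days 1 to 30 only rps-29, rpl-29, rpl-27 and rpl-12 had a slope past the threshold, all upward, with log2 changes over the whole range of 0.91 to 1.20 and adjusted p of 0.0316 to 0.038 (edgeR), although the median of the 70 slopes was 0.61 and the lowest, that of rps-13, was 0.16 ± 0.45. Of all 13884 genes, 24.9% had an upward and 31.8% a downward slope. Without any 1 of the 3 D1 libraries, or with library totals alone, no member passed. For rpl-12 the D1 libraries had 716, 664 and 719.7 CPM, D4 1662, 1811 and 1761 CPM, D15 2629, 2417 and 2690 CPM, and D30 2287, 2235 and 2261 CPM, so the day order was not kept at the end.

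Exit from D1 was accompanied by a rise of the whole set. On the slope over 0 to 24 h all 70 tested genes rose, with a median log2 change of 1.20 over the range (30.56% of all 13729 genes rose and 31.4% fell). Both steps carried it: 70 genes were higher at 6 h than at 0 h, with a median of 0.39 (20.8% of all genes), and 70 were higher at 24 h than at 6 h, with a median of 0.83 (29.7% of all genes). Including the 6 paralogs, 76 of 76 rose on the slope. Over the same time the D1 cuticle genes summed to 24800 to 25900 CPM at 0 h, 9850 to 12200 CPM at 6 h and 1140 to 2130 CPM at 24 h. The body-wall muscle genes summed to 8860 to 9840, 7350 to 7910 and 2090 to 2440 CPM. The sperm genes rose from 1.84 to 8.07 CPM to 8.42 to 18.6 and 15.8 to 52.9 CPM. The yolk genes had 0 to 0.115, 0.0994 to 0.189 and 5.73 to 29 CPM. The part of all these transcripts in the rise was not tested. In the first 6 h the genes moved almost alike, the SD of their changes being 0.0547 and the median standard error 0.0409. The largest slope was that of rpl-3, with 1630, 1542 and 1651 CPM at 0 h, 2315, 2283 and 2214 CPM at 6 h, and 4413, 4518 and 4208 CPM at 24 h (log2 change 1.47 ± 0.06, adjusted p = 5.88e-09, edgeR). The largest early rise was that of rps-24, which had 519, 513 and 545 CPM at 0 h, 757, 770.2 and 780.1 CPM at 6 h, and 1447, 1448 and 1375 CPM at 24 h. In neither gene did any 2 of the 3 times overlap. From 6 h to 24 h rpl-30, a large subunit gene, rose the most, with 810, 807 and 744 CPM at 24 h, against 423, 398 and 395 CPM at 6 h.

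Exit from later days moved the set little. On the slopes of D4, D15 and D30 the medians were 0.07, 0.08 and 0.02. On D4, 9 genes rose and 1 fell (22.6% and 21.0% of all 12607 genes), but with library totals alone 5 rose and 9 fell, as the median of all genes shifted by -0.14. On D15, 16 rose and 1 fell (22.4% and 19.9% of 13153), and this count was 6 to 9 without any 1 of 8 of the 9 D15 libraries (all but D15 0 h replicate 3), while with library totals alone 34 rose and 1 fell. On D30, 7 rose and 2 fell (24.6% and 22.2% of 13086), and with library totals alone 59 rose and none of the 70 fell, as the median of all genes shifted by 0.14. With RLE scaling 4 rose and 3 fell, and without D30 24 h replicate 1 or 2, 3 rose. With TMM scaling these shares lie near or below those of all genes. Including the 6 paralogs, 10 rose and 3 fell on D4, 17 and 2 on D15, and 8 and 5 on D30.

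Between the 2 steps the direction of the calls turned on D4 and D15. At 6 h against 0 h, 38 genes fell and none rose on D4 (22.8% of all genes fell). On D15, 36 fell and 1 rose (26.6% of all genes fell and 27% rose). On D30, 5 fell and none rose, a share below the 12.3% of all genes that fell. At 24 h against 6 h the calls were upward, with 50 up and none down on D4 (20.3% of all genes rose) and 49 up and none down on D15 (26.5%). On D30, 21 were up and 1 down (20.9% of all genes up and 20.3% down). The changes were small, with medians of -0.13, -0.11 and -0.08 for the first step and 0.16, 0.15 and 0.07 for the second, and both steps of a day share its 6 h libraries. Single libraries moved these counts. On D4 the first step gave 16 without D4 6 h replicate 1, 20 without D4 6 h replicate 3 and 21 without D4 0 h replicate 2, and the second 32 without D4 6 h replicate 1 and 31 without D4 6 h replicate 3. On D15 the first step gave 64 without D15 0 h replicate 2. On D30 the first step gave 0 or 1 without any 1 of the 3 D30 0 h libraries or D30 6 h replicate 1, 8 without D30 6 h replicate 2 and 25 without D30 24 h replicate 3, and the second 12 without D30 6 h replicate 1 and 37 without D30 24 h replicate 3. With library totals alone, 6 genes fell and 2 rose in the first step on D15, and none of the 70 fell on D30; in the second step 15 rose and 1 fell on D4, and 55 rose and none of the 70 fell on D30.

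The deepest fall of the first step on D4 was that of rps-16, with 1343, 1477 and 1409 CPM at 6 h, against 1572, 1883 and 1747 CPM at 0 h and no overlap (log2 change -0.30 ± 0.06, adjusted p = 0.00118, edgeR). The largest D4 slope was that of rpl-41.1, with 11.99, 11.3 and 11.6 CPM at 0 h, 13.02, 19.5 and 10.8 CPM at 6 h, and 21.1, 25.6 and 22.9 CPM at 24 h, where the 24 h libraries lay above the others (0.97 ± 0.18, adjusted p = 0.002). Its second step alone (0.69 ± 0.18) lost its call without D4 6 h replicate 3, at 0.51. The 1 gene that rose in the first step on D15 was rpl-22 (0.12 ± 0.04, adjusted p = 0.0361), and that call was lost without any 1 of 8 of the 9 D15 libraries (all but D15 0 h replicate 3), with values of 0.04 to 0.10. The 1 gene that fell in the second step on D30 was rpl-12 (-0.11 ± 0.03, adjusted p = 0.0146), and that call was lost without D30 24 h replicate 1 (-0.08) or D30 6 h replicate 2 (-0.10).

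The exit slopes of the 4 days differed in 70 of 70 genes by an interaction test over all 4 days (quasi-likelihood test of edgeR, adjusted over all genes), where 64.2% of all 14975 genes did. The adjusted p was lowest for rps-8, at 2.14e-17, and highest for rpl-41.1, at 0.000106. The median changes over 0 to 24 h of 1.20, 0.07, 0.08 and 0.02 from D1 to D30 show where the difference lay, and with the 6 paralogs included all 76 genes tested were called.

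Of the 70 genes, 5 rose on all 4 exit slopes, and they were picked out after their values were seen. They were rpl-3, rpl-7A, rpl-22 and rpl-30 of the large subunit and rps-18 of the small subunit. The share of all genes that rose on all 4 slopes was not counted, so 5 of 70 cannot be called few or many. The clearest was rpl-22 (chromosome II, 5055616 to 5056214), with log2 changes of 1.36, 0.39, 0.56 and 0.26 on D1, D4, D15 and D30. On D15 rpl-22 had 802, 765 and 844 CPM at 0 h, 872, 897 and 857 CPM at 6 h, and 1151, 1125 and 1122 CPM at 24 h, where the 24 h libraries lay above all others (slope 0.56 ± 0.06, adjusted p = 2.76e-05, edgeR). On D30 rpl-22 had 663, 636 and 672 CPM at 0 h, 622, 645 and 636 CPM at 6 h, and 773, 808 and 721 CPM at 24 h. Without D30 24 h replicate 1 or 2 the number of such genes was 3, and without D4 0 h replicate 2 or D4 24 h replicate 3 it was 6.

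The opposite course was that of rpl-12 late in arrest. On D30 rpl-12 had 2287, 2235 and 2261 CPM at 0 h, 2006, 2092 and 2080 CPM at 6 h, and 1858, 1947 and 1962 CPM at 24 h, with the 0 h libraries above all others and the 24 h libraries below (slope -0.21 ± 0.04, adjusted p = 0.000563, edgeR). With library totals alone this slope was -0.07 and lost its call. On D15 rpl-12 had 2629, 2417 and 2690 CPM at 0 h, 2296, 2212 and 2178 CPM at 6 h, and 2087, 2112 and 2034 CPM at 24 h. The D15 slope, -0.20 ± 0.07, was just past the threshold (adjusted p = 0.0492), and was lost without any 1 of the 3 D15 0 h libraries, the 3 D15 24 h libraries or D15 6 h replicate 1, with values of -0.18 to -0.24. The other gene that fell on the D30 slope was rps-8 (-0.14 ± 0.04, adjusted p = 0.00539), which with library totals alone was at -0.00 and also lost its call. The 1 that fell on the D4 slope was rps-6, the small subunit protein that S6 kinase phosphorylates. Its log2 change was -0.19 on D4 (adjusted p = 0.034), with 1415, 1399 and 1339 CPM at 24 h, against 1685, 1616 and 1542 CPM at 0 h, and the call was lost without any 1 of the D4 0 h or 24 h libraries.

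**Figure D3:**
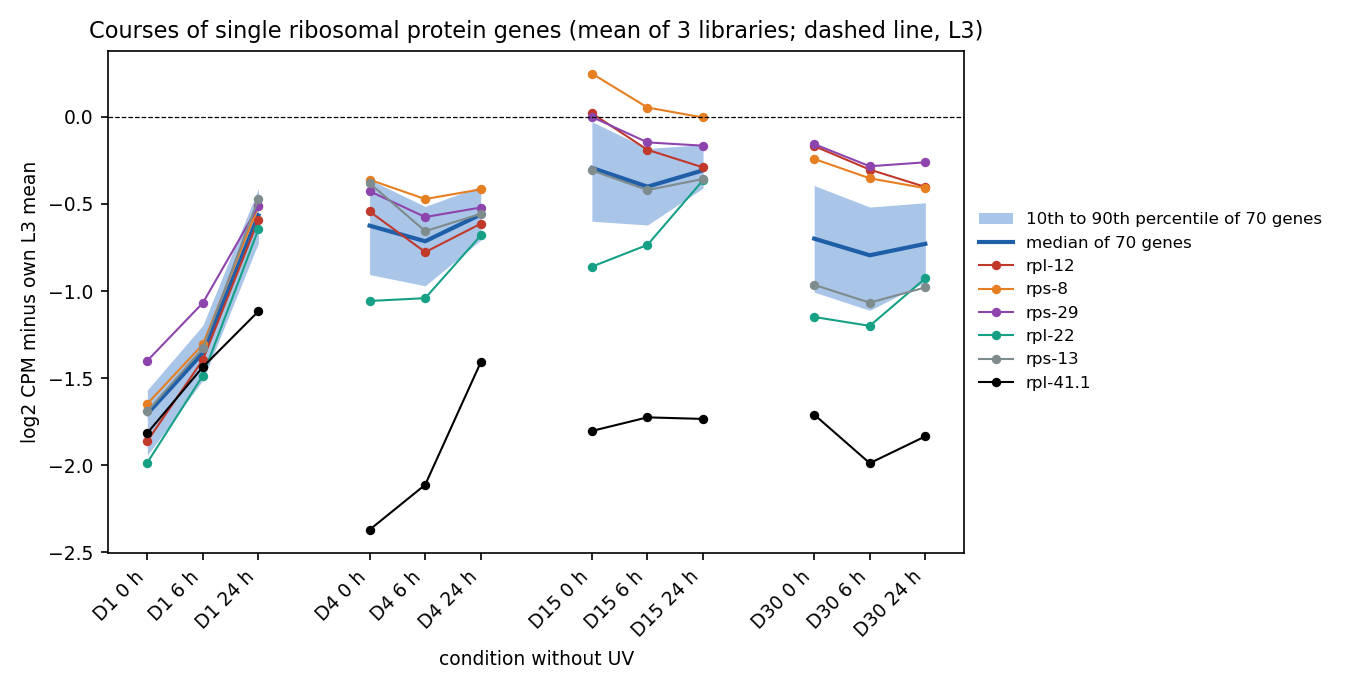
Mean log2 CPM minus the gene's own L3 mean (y axis) over 3 exit times on 4 dauer days (x axis). The blue line is the median and the band the 10th to 90th percentile of 70 ribosomal protein genes, thin lines are 6 single genes and the dashed line at 0 is L3; the median lies at -1.71 at D1 0 h and at -0.29 at D15 0 h, and rpl-41.1 lies below the band on the later days.

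After 24 h of exit the genes were still below L3 larvae by the fit with TMM scaling. All 70 were lower on D1, with a median log2 change of -0.47 (34.5% of all genes were lower), 69 on D4, with -0.43 (30.1%), 60 on D15, with -0.26 (37.4%), and 70 on D30, with -0.69 (40.1%), and these 4 comparisons share the L3 libraries. With the 6 paralogs included, 74, 73, 63 and 74 of 76 were lower on D1, D4, D15 and D30, and 2 were higher on each day. The body-wall muscle genes summed to 2090 to 2440 CPM at 24 h on D1, 1030 to 1520 CPM on D4, 1170 to 1580 CPM on D15 and 398 to 438 CPM on D30, against 14000 to 15200 CPM in L3 larvae, and their part in the result was not tested. The number of calls depended on the scaling: with library totals alone 33 were lower on D1, 35 lower and 1 higher on D4, 1 lower and 28 higher on D15, and 54 lower and 2 higher on D30. Under library totals the median of all genes itself shifted by 0.29 to 0.41, and the members' median stood 0.49, 0.43, 0.28 and 0.70 below it. That shift was 0.34 for D1 dauers at 0 h against L3, where 70 genes were lower under both scalings.

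On D15 the 2 genes above L3, neither with a call, were rpl-27 (log2 change 0.02 ± 0.05, adjusted p = 0.752, edgeR) and rps-8. For rps-8 the values were 3084, 3086 and 2984 CPM at 24 h, against 3044, 3218 and 2924 CPM in L3 larvae, which overlapped (0.04 ± 0.06, adjusted p = 0.506). Farthest from L3 on the 4 days was rpl-41.1, with 17.98, 15.8 and 17.6 CPM at 24 h on D30, against 64.7, 68.7 and 54.2 CPM in L3 larvae. On D1 the smallest difference was that of rpl-10 (chromosome II, 8143881 to 8144671), a late-joining protein of the large subunit, with 2660, 2697 and 2588 CPM at 24 h, against 3427, 3584 and 3240 CPM in L3 larvae (log2 change -0.27 ± 0.05, adjusted p = 0.00201). On D4 rpl-7 was the 1 gene without a call, with 3664, 3593 and 3584 CPM at 24 h, against 4300, 4644 and 4082 CPM in L3 larvae (-0.13 ± 0.06, adjusted p = 0.0889). It passed without L3 replicate 3 (-0.20), without a low-count filter (-0.20), with scaling that left out the members (-0.20) and in 1 fit of all libraries (-0.19). On D30 rps-29 was nearest, with 699.5, 748 and 748 CPM at 24 h, against 911, 928 and 798 CPM in L3 larvae (-0.22 ± 0.08, adjusted p = 0.0281), and the call was lost without any 1 of the 3 D30 24 h libraries, with values of -0.11 to -0.17. With library totals alone, the values of rpl-10 (0.07), rpl-7 (0.16) and rps-29 (0.19) turned positive, and rps-8 on D15 was higher than L3 with a call (0.40).

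Of the 5 comparisons with UV, the one in D4 dauers that had not begun exit had the largest median change. There 67 genes were lower after UV and none of the 70 higher, with a median log2 change of -0.36, where 14.4% of all 11420 genes were lower and 18.1% higher. The share of counts was 8.999% ± 0.566 with UV and 12.01% ± 0.241 without (SD, n = 3 each). At 6 h of D4 exit 3 genes were lower (0.441% of all 10896 genes), with a median of -0.10, and at 24 h none of the 70 was called (0.134% of all 11936 genes). The UV effects at the 3 D4 times differed in 68 of 70 genes by an interaction test (edgeR), where 22.8% of all 12780 genes did; rpl-19 (adjusted p = 0.075) and rpl-41.1 (0.5) did not pass. Including the 6 paralogs, 73 of 76 were lower at 0 h and 73 differed between the times.

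The gene most affected was rpl-28 (chromosome V, 12727593 to 12728112) of the large subunit. At 0 h on D4 it had 295, 357 and 428 CPM with UV, against 613, 631 and 647 CPM without, with no overlap (log2 change -0.73 ± 0.10, adjusted p = 0.000128, edgeR). At 6 h rpl-28 had 468, 460.5 and 442 CPM with UV, against 543, 577 and 582 CPM without (-0.29 ± 0.06, adjusted p = 0.0401). Likewise rpl-12 had 1049, 1161 and 1219 CPM with UV at 0 h, against 1662, 1811 and 1761 CPM without, and rpl-7A (chromosome IV, 4389143 to 4390590) had 1014, 1108 and 1185 CPM, against 1515, 1518 and 1494 CPM. The genes without a call at 0 h were rps-30 (-0.15, adjusted p = 0.057), rpl-19 (-0.11, adjusted p = 0.11) and rpl-41.1 (0.47 ± 0.29, adjusted p = 0.24). For rpl-19, a large subunit protein that reaches across to the small subunit, the values were 1879, 1938 and 1999 CPM with UV, against 2201, 2292 and 2158 CPM without, which did not overlap.

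The D4 0 h libraries differed in more than UV. The D1 cuticle genes summed to 685 to 1250 CPM with UV, against 10.5 to 35 CPM without, the adult yolk genes to 0 to 1.21 CPM, against 470 to 1860 CPM, the sperm genes to 0 to 2.42 CPM, against 33 to 75.6 CPM, and the germline genes pgl-1 and glp-1 to 118 to 150 CPM, against 228 to 245 CPM. Their part in the lower ribosomal protein levels was not tested. The UV libraries were also shallower, and after the libraries without UV were thinned to 733689 counts, an alternative chosen after seeing the data, 66 genes were lower.

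The 3 genes lower at 6 h of D4 exit were rpl-28, rpl-18 (-0.25) and rpl-5 (-0.24), and none of the 3 calls outlasted the omission of D4 6 h replicate 1, 2 or 3 or of D4 6 h UV replicate 1 or 2, while 5 genes were lower without D4 6 h UV replicate 3. At 24 h on D4 the changes ran from -0.16 to 0.22, and 8 of the 70 had an unadjusted p under 0.05 by edgeR, while DESeq2 also gave 0 calls after adjustment. The largest of these was that of rpl-33, with 774, 922 and 849 CPM with UV, against 772, 729 and 690.1 CPM without (0.22 ± 0.07, adjusted p = 0.246).

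On D1 the effects of UV were small and ran the other way early on. At 6 h, 16 genes were higher and none of the 70 lower after UV, with a median of 0.09 (14.4% of all 13463 genes were higher and 13.4% lower). The largest was that of rps-27 (chromosome V, 103394 to 104077), a zinc-binding protein of the small subunit, with 569, 529 and 619 CPM with UV, against 421, 387 and 406 CPM without (log2 change 0.50 ± 0.06, adjusted p = 7.99e-05, edgeR). Next were rpl-19, with 1909, 1805 and 1964 CPM with UV, against 1461, 1460 and 1486 CPM without, and rpl-10, with 2011, 1912 and 2055 CPM, against 1671, 1620 and 1609 CPM. In these 3 genes the groups did not overlap. The count was 6 without D1 6 h replicate 2 or 3 and 10 without D1 6 h UV replicate 3, and 5 with library totals alone. The D1 cuticle genes summed to 12600 to 16100 CPM with UV and 9850 to 12200 CPM without, and their part was not tested.

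At 24 h on D1, 4 genes were lower after UV (6.13% of all 13113 genes), with a median over the 70 of -0.07. The lowest was rpl-41.2, with 1281, 1336 and 1434 CPM with UV, against 1668, 1617 and 1503 CPM without (log2 change -0.27 ± 0.05, adjusted p = 0.0049, edgeR), and the others were rpl-38 (-0.17), rpl-30 (-0.16) and rpl-3 (-0.12). A share of 4 in 70 is near that of all genes, but with library totals alone 9 were lower. The count was 1 or 2 without D1 24 h replicate 1 or 2 or D1 24 h UV replicate 1 or 2, 8 without D1 24 h replicate 3 and 11 without D1 24 h UV replicate 3.

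**Figure D4:**
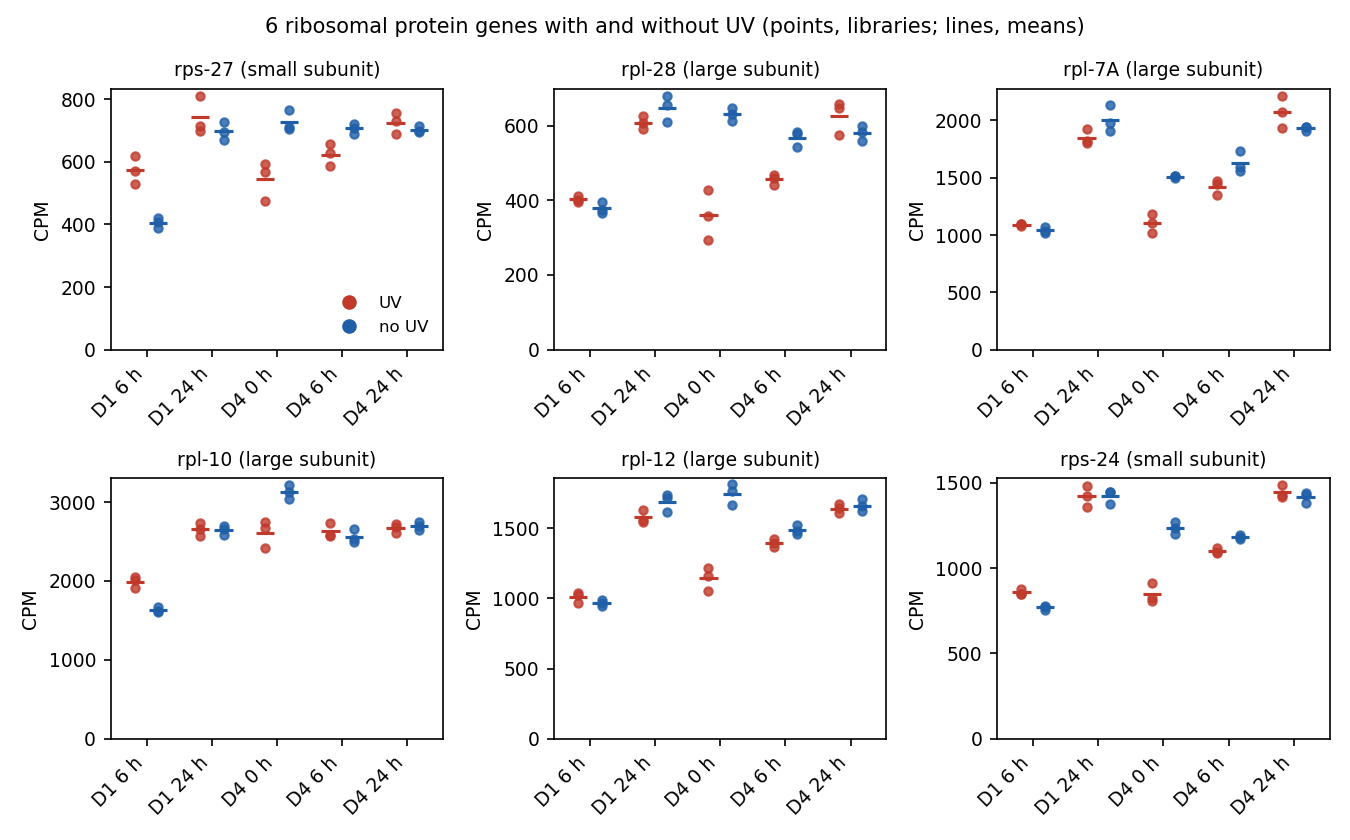
CPM (y axis, from 0) of 6 ribosomal protein genes in 5 pairs of conditions (x axis), with UV (red, left of each pair) and without (blue, right). Points are libraries and lines are means of 3; rps-27 is higher with UV at D1 6 h, and rpl-28, rpl-7A and rpl-12 are lower with UV at D4 0 h, with no overlap.

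All comparisons of 2 conditions and all slopes are set side by side for the single genes in the plot of 27 comparisons. The spread among genes was taken as the SD of the 70 changes over the median standard error. It was widest in D4 against D1 dauers, at 5.25, with rpl-41.1 included at -0.49 while the quartiles of the 70 changes were 1.13 and 1.29. The ratio was narrowest on the slope over dauer days, at 0.505. Among the comparisons of 2 conditions it was narrowest at 6 h against 0 h on D30, at 0.753.

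**Figure D5:**
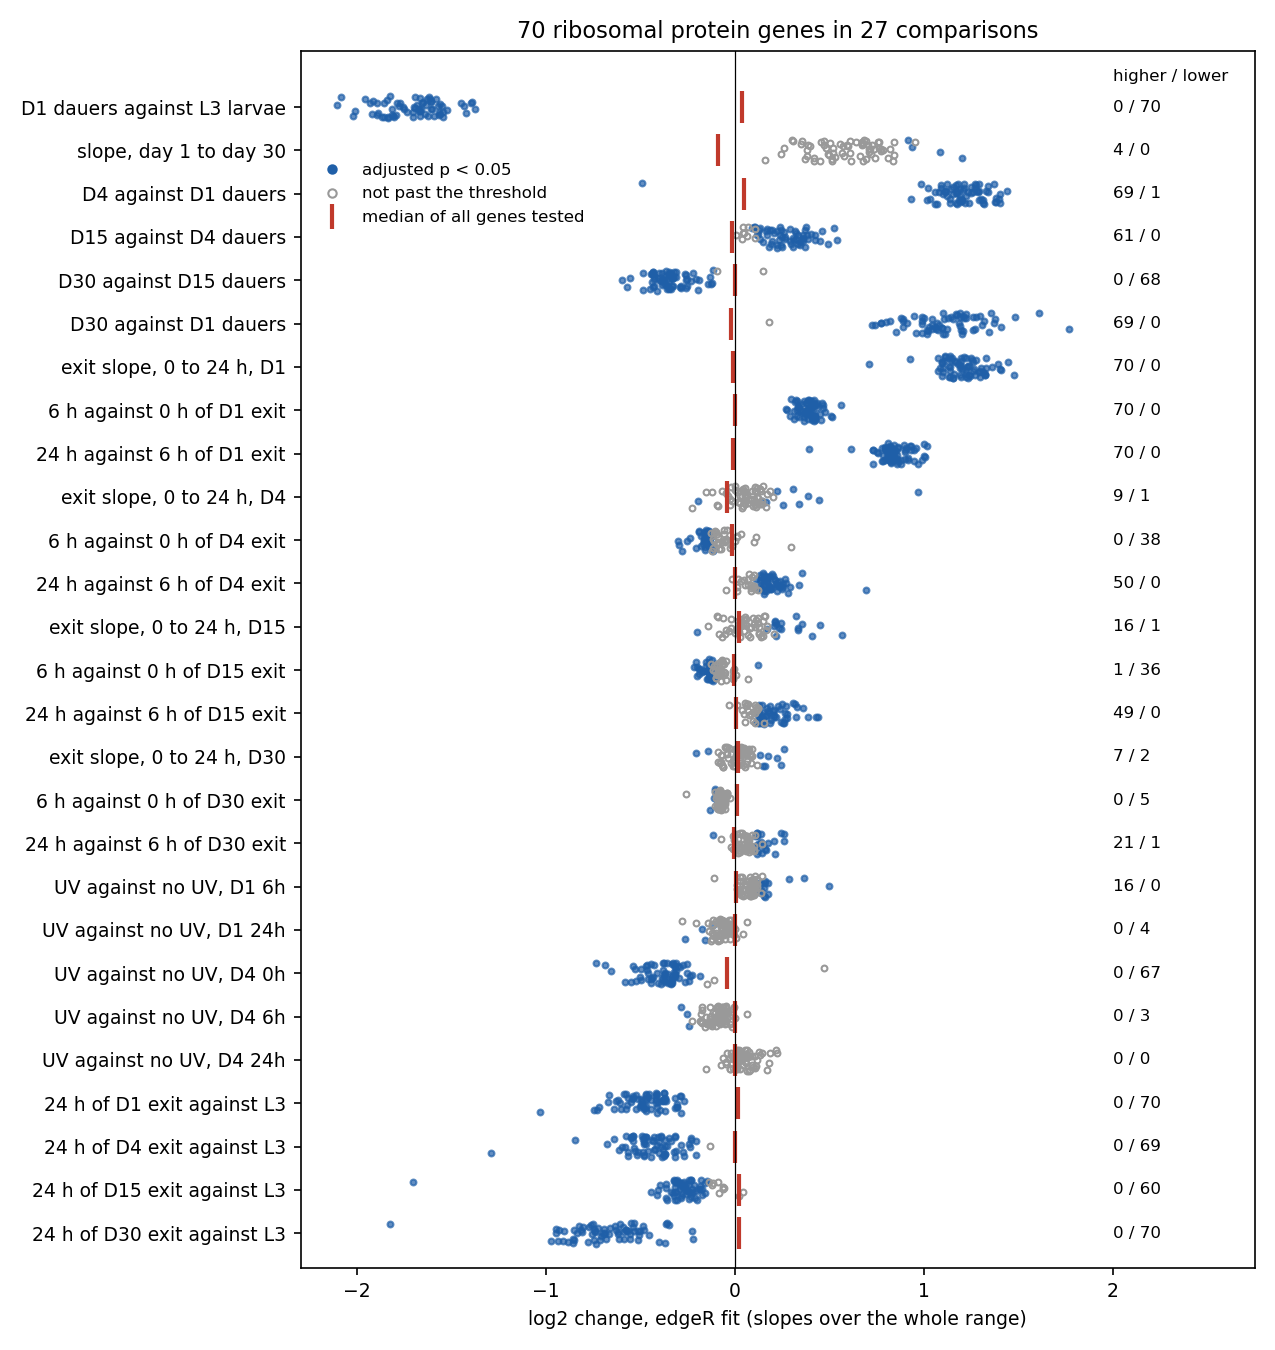
Log2 change of each of 70 ribosomal protein genes (x axis; slopes over their whole range) in 27 comparisons (y axis), with the count of genes higher and lower at the right. Filled points passed an adjusted p of 0.05, open points did not, and red bars are the medians of all genes tested; the genes lie left of 0 for D1 against L3 and right of 0 for D4 against D1 and for D1 exit.

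Over the 18 conditions, the members' levels moved together. The correlation of a gene's mean log2 CPM with the mean of the other members was over 0.9 for 69 of the 70 tested genes and over 0.95 for 57, with a median of 0.981; the points share libraries, and the set was trimmed for this property. The 5 lowest over all 72 were rpl-42 (0.083), rpl-41.1 (0.361), rpl-37 (0.509), rps-29 (0.914) and rpl-7A (0.917). D1 0 h was the lowest condition of 69 of the 70, and L3 the highest of 65. How often each held over all genes was not counted. The 5 highest on D15 at 0 h instead were rpl-10, rpl-12, rpl-27, rps-8 and rps-30. These ranks are of CPM with TMM factors, and the place of L3 depended on the scaling. By share of counts D15 24 h was highest, with 13.3% against 12.3% in L3 larvae. With library totals alone 28 genes were higher and 1 lower at 24 h on D15 than in L3. Between its lowest and highest condition a gene spanned 1.40 to 2.50 on the log2 scale, with a median of 1.72.

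The 10 genes outside the set with the most similar course over the 18 conditions, among 9922 with a mean count of at least 50, began with rpl-24.1 (Pearson correlation 0.995), one of the paralogs left out. The others were rla-1 (0.987), rack-1 (0.987), C37A2.7 (0.983), rla-0 (0.981), Y37E3.8 (0.978), ubq-2 (0.977), rla-2 (0.967), W01D2.1 (0.966) and ndk-1 (0.966). Of these, rla-0, rla-1 and rla-2 code for the proteins of the stalk, rack-1 for a scaffold on the small subunit. The gene ubq-2 codes for a ribosomal protein made as a fusion with ubiquitin. The names C37A2.7, Y37E3.8 and W01D2.1 do not say what these genes code for, so they may also be ribosomal protein genes. Among the other left-out paralogs the correlation was 0.939 for rpl-25.2, 0.865 for rpl-25.1, 0.576 for rpl-11.2, 0.497 for rpl-24.2 and -0.025 for rpl-11.1. Of the 6, rpl-11.1 alone had more RNA in D1 dauers than in L3 (log2 change 1.10 ± 0.09, adjusted p = 1.78e-05, edgeR), and with all 6 included 75 of 76 genes were lower there.

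A list of 6 ribosomal protein genes that the symbol pattern misses, which need not be complete, followed the set. These 6 genes, rla-0, rla-1, rla-2, rack-1, ubq-2 and ubl-1, were all lower in D1 dauers than in L3 larvae (median log2 change -1.66), higher on D4 than on D1 (1.15), lower on D30 than on D15 (-0.37), higher during D1 exit (1.18) and lower after UV at 0 h on D4 (-0.34). Among all genes tested, 36.9% were lower in the first of these comparisons, 36% higher in the second and 28.8% lower in the third. On the D1 exit slope 30.56% were higher, and 14.4% were lower after UV at 0 h on D4. All but ubl-1 are also among the 10 most similar genes named above.

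Elongation factors were low on D1 and higher on D4. Of 8 tested, 7 were lower and 1 higher in D1 dauers than in L3, with a median of -1.42. Those lower included iff-2 (-2.04), eef-1B.2 (-2.03) and eef-2 (-1.40), the last the factor that moves the ribosome along. All 8 were higher on D4 than on D1 (median 1.31) and rose on the D1 exit slope (1.11). In D30 against D15 dauers 4 fell and 2 rose, with a median of -0.10. After UV, 6 of 8 were higher at 6 h on D1 and 4 lower at 0 h on D4. Of all genes tested, 36.9% were lower and 38.7% higher in D1 dauers than in L3. For D4 against D1 36% rose, and on the D1 exit slope 30.56% rose. For D30 against D15 28.8% fell and 28.9% rose. After UV 14.4% were higher at 6 h on D1 and 14.4% lower at 0 h on D4.

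Initiation factors were also low on D1, but more of them rose than fell late in arrest. In D1 dauers 25 of 27 were lower and 1 higher than in L3 larvae (median -1.12). Those lower included pab-1, the poly(A)-binding protein (-1.57), inf-1, the helicase of the cap complex (-2.28), and eif-3.C (-1.69). In D4 against D1 dauers 20 rose and 2 fell, with a median of 0.45. In D30 against D15 dauers, where 68 of 70 ribosomal protein genes fell, 15 of 27 rose and 3 fell, with a median of 0.22. The risers included egl-45 (0.86), eif-2beta (0.72) and eif-3.G (0.54), the first and last both subunits of the scaffold complex that binds the small subunit. The difference between the lists was not tested. On the day slope 16 rose and 4 fell. On the D1 exit slope 24 rose and 2 fell, and on the D15 exit slope 4 rose and 10 fell. After UV, 21 of 27 were higher and none lower at 6 h on D1, led by eif-6, which keeps the subunits apart (0.96). At 0 h on D4, 2 were higher and 11 lower. Of all genes tested, 36.9% were lower and 38.7% higher in D1 dauers than in L3. For D4 against D1 36% rose and 34.1% fell, for D30 against D15 28.9% and 28.8%, and on the day slope 24.9% and 31.8%. On the exit slopes 30.56% rose and 31.4% fell on D1, and 22.4% and 19.9% on D15. After UV 14.4% were higher and 13.4% lower at 6 h on D1, and 18.1% and 14.4% at 0 h on D4.

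Genes of RNA polymerase I and the nucleolus, where ribosomal RNA is made and processed, were lower in D1 dauers than in L3 larvae in 10 of 14 and higher in 2. These genes and the TOR genes below were counted without regard to whether they promote or restrain ribosome production. The counts therefore give no direction of that production. Among those lower in D1 dauers were fib-1, the nucleolar methyltransferase fibrillarin (-2.29), pro-3 (-1.01) and dao-5 (-0.92). In D4 against D1 dauers 12 rose and 1 fell, and in D30 against D15 dauers 5 rose and 5 fell. During exit 12 rose and none fell on D1, 9 rose and 3 fell on D15, and 8 rose and 3 fell on D30. The risers on D15 included rpoa-2, a subunit of the polymerase (1.01), dao-5 (0.80) and pro-2 (1.11). The medians of these 14 were 0.46 on the D15 slope and 0.32 on the D30 slope, where those of the 70 ribosomal protein genes were 0.08 and 0.02. After UV, 9 were higher and 2 lower at 6 h on D1, and 1 was higher and 7 lower at 0 h on D4. Of 12 genes of the TOR pathway, which controls ribosome production, 5 were lower and 3 higher in D1 dauers than in L3. In this list 7 rose and 1 fell on D4 relative to D1, and 4 rose and 2 fell on D30 relative to D15. On the D1 exit slope 6 rose and 2 fell. After UV none of the 12 was called at 6 h on D1, and 1 was higher and 1 lower at 0 h on D4. Of all genes tested, 36.9% were lower and 38.7% higher in D1 dauers than in L3. For D4 against D1 36% rose and 34.1% fell, and for D30 against D15 28.9% and 28.8%. On the exit slopes 30.56% rose and 31.4% fell on D1, 22.4% and 19.9% on D15, and 24.6% and 22.2% on D30. After UV 14.4% were higher and 13.4% lower at 6 h on D1, and 18.1% and 14.4% at 0 h on D4.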

How the data were processed

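RNA of whole larvae was sequenced in 54 libraries, 3 for each of 18 conditions. According to the methods, the authors trimmed reads with fastp and quantified them with Salmon against WormBase ParaSite transcripts with the genome as decoy. The deposited table holds estimated counts per gene, which were rounded to whole numbers; 8.49% to 64.7% of a library's values had decimals. Genes with at least 10 counts in 3 libraries of a fit were tested in edgeR 4.0.16 (R 4.3.3) with TMM factors and the quasi-likelihood test, adjusted over all genes (Benjamini-Hochberg, threshold 0.05). Slopes took day or hour as a number and are given over the whole range. SE is the log2 change divided by the square root of F. CPM uses TMM factors over all 54 libraries.

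Members and gene lists were chosen with earlier results of these data known. Genes named are, per comparison, the largest rise and fall, calls against the majority (up to 5), the one nearest the D1 against L3 median and the 5 least correlated. A few more were chosen after their values were seen. Lists are given by counts and some of their genes. Alternatives were RLE scaling, library totals alone, totals without the members, no filter, DESeq2 1.42.0, the replicate number as a block, 1 fit of all libraries, a threshold of 0.01, the 6 paralogs included, each library left out and, chosen after seeing the data, thinning. The scripts were tested on simulated data. Positions are from WBcel235; 19897 genes matched.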

Additional observations from a re-analysis of the deposited data

Results flagged for a closer look

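The change during exit differed between the 4 dauer days in 70 of the 70 ribosomal protein genes tested, by an interaction test of the slopes over 0 to 24 h (edgeR's quasi-likelihood test), where 64.2% of all 14975 genes did. The median log2 change over 24 h was 1.20 on D1, 0.07 on D4, 0.08 on D15 and 0.02 on D30.

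The effect of UV differed between 0 h, 6 h and 24 h of D4 exit in 68 of the 70 genes by the same kind of test, where 22.8% of all 12780 genes did, with median log2 changes of -0.36, -0.10 and 0.03. The adult yolk genes summed to 470 to 1860 CPM in the D4 0 h libraries without UV, and reached 146 CPM in 1 library at 6 h and 229 CPM in 1 at 24 h without UV. The sperm genes summed to 33 to 75.6 CPM at 0 h, 1.71 to 5.99 CPM at 6 h and 1.18 to 51 CPM at 24 h without UV. The part of these transcripts in the difference was not tested.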

How the results depend on the processing

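Over 29 comparisons, 218 of 259 counts of called members under the alternatives stayed within 1.5 times the main count in the same direction, 39 moved and 2 reversed; of 282 counts with 1 library left out, 240 stayed and 42 moved. Of 934 alternative values for single members, 865 kept direction and call, 56 lost the call, 9 gained it and 4 reversed. The causes were not tested. With library totals alone, counts in the main direction were 0 on the day slope, 24 for D15 against D4, 5 on the D4 exit slope (9 fell), 15 for 24 h against 6 h on D4, 34 on the D15 slope, 6 for 6 h against 0 h on D15, 59 on the D30 slope, 0 for 6 h against 0 h and 55 for 24 h against 6 h on D30. They were 5, 9 and 1 for UV at D1 6 h, D1 24 h and D4 6 h, and 33, 35 and 1 (28 higher) for 24 h of D1, D4 and D15 exit against L3. The 4 single values that reversed were rps-13 for D15 against D4 (-0.22), rpl-10 for D1 24 h against L3 (0.074), rpl-7 for D4 24 h (0.16) and rps-29 for D30 24 h (0.19). With RLE scaling the D30 slope gave 4 higher and 3 lower, and 6 h against 0 h on D30 gave 25. DESeq2 gave 9 on the day slope, 4 on the D30 slope, 16 for 6 h against 0 h on D30 and 0 for UV at D4 6 h. In 1 fit of all libraries, 6 h against 0 h and 24 h against 6 h on D30 gave 14 and 8, and UV at D1 6 h, D1 24 h and D4 6 h gave 8, 1 and 8.

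At an adjusted p under 0.01 the counts were 0 on the day slope, 16 and 30 for the D4 exit steps, 7 on the D15 slope, 12 for 6 h against 0 h on D15, 3 on the D30 slope, 0 and 11 for the D30 steps, and 6, 1 and 0 for UV at D1 6 h, D1 24 h and D4 6 h.

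With the replicate number as a block the counts were 0 on the day slope, 9 on the D15 slope, and 1 each for UV at D1 24 h and D4 6 h. The numbers share no litter or day in the labels, and in none of 28 pairs of groups did every same-numbered pair of libraries correlate above 0.1 (range -0.207 to 0.298). In 3 of them each library correlated best with its own number.

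Leaving out 1 library at a time gave 0 to 6 on the day slope, 56 to 66 for D15 against D4, 62 to 69 for D30 against D15, 16 to 42 and 31 to 55 for the D4 exit steps, 6 to 15 on the D15 slope, 37 to 64 for 6 h against 0 h on D15, 3 to 7 on the D30 slope, 0 to 25 and 12 to 37 for the D30 steps, 41 to 68 for D15 24 h against L3, and 6 to 22, 1 to 11, 63 to 67 and 0 to 5 for UV at D1 6 h, D1 24 h, D4 0 h and D4 6 h. D1 against L3, D4 against D1, D30 against D1 and the D1 exit slope stayed at 70, 69, 69 and 70. With the 0 h libraries thinned to 4069749 counts, D15 against D4 gave 59 and D30 against D15 gave 64.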
